A study of Homo sapiens with 6 samples.

Results

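The genes of the HOXA cluster, together with MEIS1 and PBX3, were examined in the human acute myeloid leukaemia cell line OCI-AML2. Cells had been given MRT199665 at 100 nM for 48 h, or vehicle for the same time. The members were the 10 rows of the count table with the symbols HOXA3, HOXA4, HOXA5, HOXA6, HOXA7, HOXA9, HOXA10, HOXA13, MEIS1 and PBX3, out of 55765 rows in all. Per the labels MRT199665 inhibits MARK kinases, and by its title the series concerns MEF2C phosphorylation in chemotherapy resistance. Each group held 3 libraries of 3′ messenger RNA tags, and the labels say that cultures were grown from single cells. Whether replicate libraries had cultures of their own is not stated, and p-values therefore describe the scatter of these libraries, part of which may be technical. A single cell line limits what the values stand for beyond it.

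HOX proteins are homeodomain transcription factors encoded in clusters whose gene order follows the body axis of the embryo. In blood, the genes around HOXA9 are active in stem and progenitor cells and decline as cells mature. MEIS1 and PBX3 belong to the TALE homeodomain family and bind DNA together with HOX proteins, and the HOXA9, MEIS1 and PBX3 combination is a known driver of acute myeloid leukaemia, above all with KMT2A rearrangement or NPM1 mutation.

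The 6 libraries held between 5871097 and 14308650 counts, the lowest total being that of MRT199665 replicate 2. Values are CPM, which are counts brought to the same total with TMM factors. Where a gene had 0 counts, up to 3 counts remain possible, which is 0.212 CPM in the deepest and 0.506 CPM in the shallowest library (counting error only). Of 13 defining markers of myeloid blasts, 11 passed the low-count filter, among them PTPRC, CD33, SPI1 and MPO, while CD34 and CEBPA had a count of 0 in all 6 libraries. Markers of other cell types summed to between 8.56 and 11.5 CPM with MRT199665 and between 8.21 and 10.4 CPM with vehicle, and HBB, MS4A1 and KRT19 were at 0 in all libraries. The first principal component, with 46.8% of the variance, did not separate the groups and ran from MRT199665 replicate 2 (score 48.5) to vehicle replicate 2 (score -36.8).

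The start-site windows of HOXA9 and MEIS1 are shown because these genes encode the best known pair of the programme and because the windows touch no annotated exon. Of the 10 members, 9 had at least 1 window in the RefSeq promoter table (GRCh38.p14), and HOXA5 had none. Each sequence gives the 250 bases before the start site, on the strand of the gene, with CpG dinucleotides in capitals. The HOXA9 window is chr7:27165538-27165787 (minus strand) and the MEIS1 window chr2:66434875-66435124 (plus strand).
HOXA9: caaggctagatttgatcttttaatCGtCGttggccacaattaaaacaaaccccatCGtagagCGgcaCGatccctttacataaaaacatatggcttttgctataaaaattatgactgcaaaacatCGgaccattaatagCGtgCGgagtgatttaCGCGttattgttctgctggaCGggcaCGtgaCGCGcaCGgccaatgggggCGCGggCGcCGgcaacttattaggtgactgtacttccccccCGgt
MEIS1: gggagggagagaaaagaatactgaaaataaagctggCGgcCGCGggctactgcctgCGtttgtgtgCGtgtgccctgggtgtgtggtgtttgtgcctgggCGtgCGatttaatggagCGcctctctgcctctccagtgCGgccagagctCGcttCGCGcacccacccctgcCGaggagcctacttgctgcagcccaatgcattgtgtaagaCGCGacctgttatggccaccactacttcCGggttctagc
The HOXA9 window held 20 CpG dinucleotides at 48.8% GC, and the MEIS1 window 16 at 59.6% GC. Neither window held, on either strand, the HOX-PBX motif TGATTNAT, the MEIS motif TGACAG, the cAMP response element TGACGTCA or the MEF2 consensus. Over 35116 windows of the same length these were found in 2.48%, 13%, 1.65% and 0.515%. Among the 16 windows of members, TGACAG occurred in 1 window each of HOXA4 and PBX3, and the other motifs in none.

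No member was called higher or lower with MRT199665. HOXA9, HOXA10 and MEIS1 were transcribed with and without the inhibitor at levels that overlapped between the groups, and HOXA3 was the only tested member whose groups did not overlap. Of the 10 members, 8 passed the low-count filter, 0 were called higher, against 0.85% of all tested genes, and 0 lower, against 0.398%, or 1.25% in either direction. A call needed a Benjamini-Hochberg adjusted p below 0.05 over the 13053 genes tested with edgeR's quasi-likelihood method. At an unadjusted p under 0.05 there was 1 member, HOXA3, against 14.7% of all tested genes, and DESeq2 and limma-voom called none. In bulk libraries such as these, fewer cells that transcribe a gene and less RNA per cell cannot be told apart. Non-overlapping groups were found for 1 of the 8, against 22.2% of all tested genes. Both shares are near the background, so they single out nothing about the members. Levels are not ranked between genes, since counts of tags from 3′ ends depend on where each annotated end lies.

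**Figure D1:**
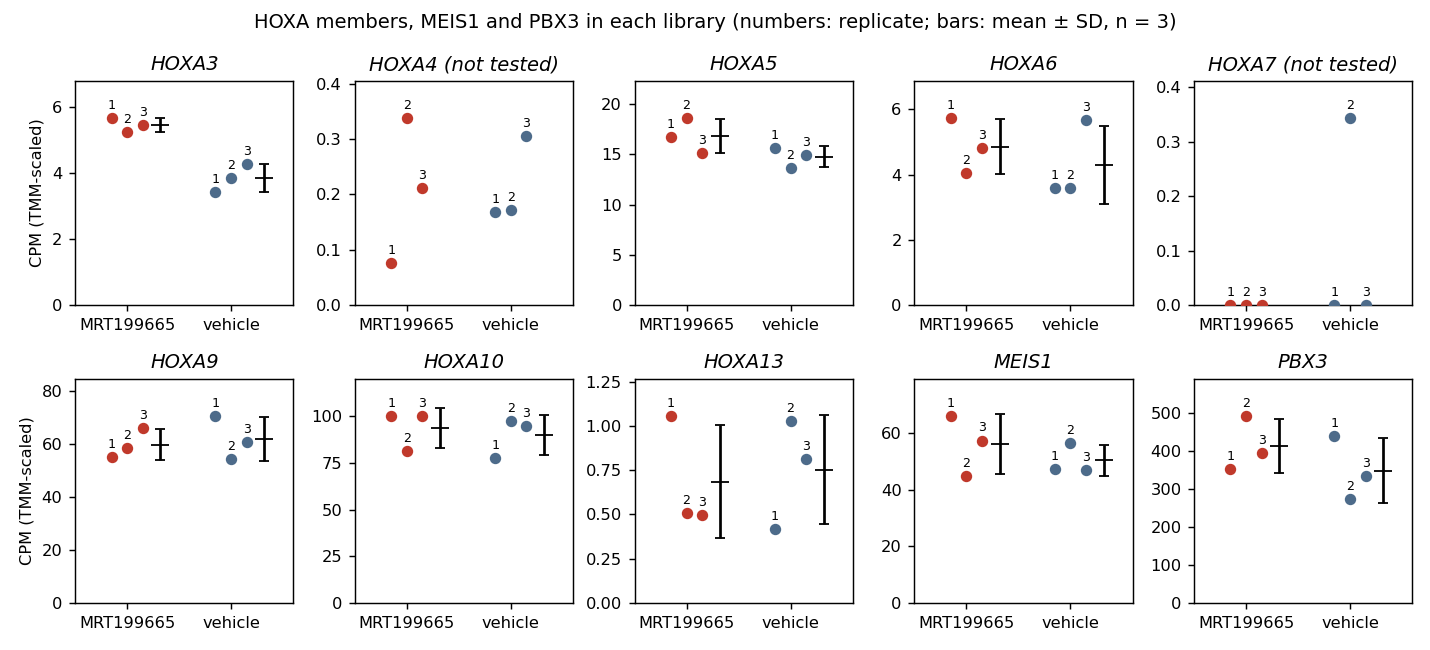
TMM-scaled CPM (y axes, each from 0) of the 10 members in the 3 MRT199665 and 3 vehicle libraries, numbered by replicate, with mean and SD where the gene was tested. Only HOXA3 has non-overlapping groups, from 5.23 to 5.65 CPM with MRT199665 and from 3.43 to 4.27 CPM with vehicle, while HOXA4 and HOXA7 lie at a few counts per library.

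HOXA9, the homeodomain factor most closely tied to leukaemic self-renewal, had 55.0, 58.3 and 66.1 CPM in MRT199665 replicates 1, 2 and 3, against 70.6, 54.3 and 60.8 CPM in vehicle replicates 1, 2 and 3. The groups overlapped, and the highest and the lowest library were both vehicle. The log2 fold change was -0.05 ± 0.14 (SE, adjusted p = 0.920), and its 95% interval ran from 0.781-fold to 1.20-fold, so a 2-fold change in either direction lay outside it. HOXA10, its neighbour, which restrains myeloid differentiation, had 100.0, 81.3 and 100.0 CPM with MRT199665, against 77.6, 97.3 and 94.9 CPM with vehicle. Here too the groups overlapped, with the lowest value in vehicle replicate 1. Its log2 fold change was 0.06 ± 0.14 (SE, adjusted p = 0.888, interval 0.842-fold to 1.30-fold). Both values are small enough for a single library to turn their sign: without vehicle replicate 1 HOXA9 stood at 0.056 and HOXA10 at -0.034, and without MRT199665 replicate 1 HOXA9 stood at 0.0079.

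The balance between these neighbours varied more between vehicle libraries than between groups, at a mean ratio of HOXA9 to HOXA10 counts of 0.643 ± 0.0853 (SD) with MRT199665, against 0.703 ± 0.184 (SD) with vehicle. By library the ratio was 0.550, 0.718 and 0.661 in MRT199665 replicates 1, 2 and 3, against 0.909, 0.558 and 0.641 in vehicle replicates 1, 2 and 3. Vehicle replicate 1 lay above all other libraries, and the vehicle values spanned the MRT199665 values except the lowest, in replicate 1. Together the pair made up between 78.5% and 82.8% of the counts of the 10 HOXA genes analysed with MRT199665 and between 82.5% and 83.4% with vehicle. The ratio and these shares are of counts of 3′ tags, so they compare libraries and do not rank the genes. Summed over these 10 genes, the level was 190.3 ± 11.5 CPM (SD) in the 3 MRT199665 libraries, against 183 ± 4.78 CPM (SD) in the 3 vehicle libraries, and the groups overlapped.

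MEIS1, the TALE partner that stabilises HOXA9 on DNA, had 66.0, 44.9 and 57.4 CPM in MRT199665 replicates 1, 2 and 3, against 47.3, 56.6 and 47.0 CPM in vehicle replicates 1, 2 and 3. The lowest value and the highest were both MRT199665 libraries. The log2 fold change was 0.16 ± 0.16 (SE, adjusted p = 0.696, interval 0.870-fold to 1.44-fold). It moved to 0.03 without MRT199665 replicate 1 and to 0.38 without replicate 2 of both groups, and was not called in any of these. PBX3, the PBX partner linked to HOXA9 in leukaemia, had 354, 493 and 395 CPM with MRT199665, against 440, 273 and 334 CPM with vehicle. The log2 fold change was 0.24 ± 0.20 (SE, adjusted p = 0.623, interval 0.871-fold to 1.61-fold), the groups overlapping.

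The 6 PBX3 values stood in exactly the order of the libraries' scores on the first principal component, from 493 CPM in MRT199665 replicate 2, then vehicle replicate 1, MRT199665 replicates 3 and 1 and vehicle replicate 3, to 273 CPM in vehicle replicate 2. Such an order was found for 189 of the 13053 tested genes (1.45%) and the reverse order for 141 (1.08%). PBX3 was the only one of the 8 tested members with either order. MEIS1 was lowest and PBX3 highest in MRT199665 replicate 2, the library of lowest depth. Without replicate 2 of both groups, the ends of the component, the PBX3 log2 fold change was -0.053 (adjusted p = 0.901), of the opposite sign, and leaving out MRT199665 replicate 2 or vehicle replicate 2 alone gave 0.10 and 0.08. MRT199665 replicate 2 held the highest PBX3 value of its group and vehicle replicate 2 the lowest of its own. Leaving them out therefore had to lower the log2 fold change. The part of the component in the PBX3 values was not tested.

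**Figure D2:**
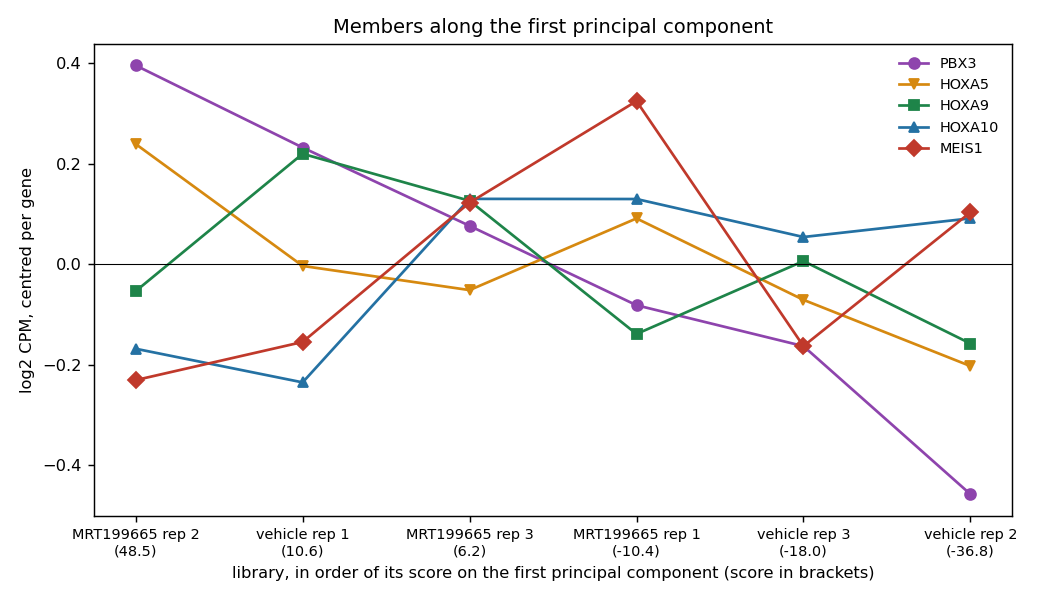
Log2 CPM centred per gene (y axis) of PBX3, HOXA5, HOXA9, HOXA10 and MEIS1 in the 6 libraries, ordered on the x axis by score on the first principal component, from 48.5 to -36.8. PBX3 declines at every step, while MEIS1 is lowest at the left end and highest in MRT199665 replicate 1.

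Of the remaining members, HOXA3, a paralogue group 3 gene best known from pharyngeal and endothelial development, had 5.65, 5.23 and 5.45 CPM in MRT199665 replicates 1, 2 and 3, against 3.43, 3.85 and 4.27 CPM in vehicle replicates 1, 2 and 3. All MRT199665 values lay above all vehicle values. The log2 fold change was 0.51 ± 0.19 (SE), at an unadjusted p of 0.0266 and an adjusted p of 0.264, and over 15 alternatives it lay between 0.43 and 0.58 with adjusted p between 0.230 and 0.631. HOXA5, which promotes myeloid over erythroid fate, had 16.7, 18.6 and 15.1 CPM, against 15.7, 13.6 and 14.9 CPM with vehicle. MRT199665 replicate 3 fell within the vehicle values, and the log2 fold change was 0.18 ± 0.14 (SE, adjusted p = 0.611). HOXA6 had 5.73, 4.05 and 4.81 CPM, against 3.60, 3.60 and 5.69 CPM with vehicle. Its highest values in the 2 groups were nearly equal, and the log2 fold change was 0.21 ± 0.25 (SE, adjusted p = 0.759). HOXA13, at the 5′ end of the cluster and otherwise a gene of limbs and hindgut, had only 14, 3 and 7 counts with MRT199665 and 5, 12 and 8 counts with vehicle. The log2 fold change was -0.07 ± 0.49 (SE, adjusted p = 0.975), and the interval, from 0.441-fold to 2.06-fold, left room for a 2-fold change in either direction.

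HOXA4 and HOXA7 did not pass the filter. HOXA4 had 1, 2 and 3 counts in MRT199665 replicates 1, 2 and 3, against 2, 2 and 3 counts in vehicle replicates 1, 2 and 3. HOXA7, a gene often expressed beside HOXA9 in leukaemia, had 0 counts in the 3 MRT199665 libraries and in vehicle replicates 1 and 3, and 4 counts in vehicle replicate 2. Both stand near 0 in the table between neighbours that do not, since HOXA3 and HOXA5 flank HOXA4, and HOXA6 and HOXA9 flank HOXA7.

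Antisense annotation over the last 250 and 500 exon bases set these genes apart from the other members, but over 1000 bases it did not for HOXA4. In GENCODE release 29, which is on a later build than hg19, exons of the antisense RNA HOXA-AS3 cover 100% of the last 500 exon bases of HOXA7, and exons of HOXA-AS2 cover 50.8% of those of HOXA4 and 100% of its last 250. For the other 8 HOXA genes analysed, MEIS1 and PBX3 this share was 0% at 250 and 500 bases. Over the last 1000 exon bases it was 100% for HOXA7 and 25.4% for HOXA4, with 28.3% for HOXA10 and 22% for HOXA6. On the same strand, exons of AC004080.6 cover 53.8% of the last 1000 exon bases of HOXA4 and 7.6% of its last 500. Those of AC004080.5 cover 5.7% of the last 1000 of HOXA6, while HOXA7 has 0% at both lengths. The part of either overlap in the counts was not tested. Of the markers at 0, antisense cover was looked up only for CEBPA, at 100% of its last 500 exon bases and 54.1% of its last 1000. It was not looked up for CD34, HBB, MS4A1 or KRT19, so CEBPA does not stand for genes at 0. Among protein-coding genes at large the measures differed in direction. Of 482 with full antisense cover 57.3% passed the filter, against 55.7% of 16114 with none. A count of 15 or less, summed over the 6 libraries, was found for 31.1% with full cover, against 38.1% with none. The median summed count was 105 with full cover, against 138 with none. Of 978 genes covered over 50% or more, 59.2% passed, 30.1% had 15 or less, and the median was 139. The strand setting and the rule for reads in overlapping genes are not given in the sources used here, so the near absence of HOXA4 and HOXA7 counts is a property of the table, and whether the genes were transcribed was not tested.

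The other cluster genes analysed gave the same picture. Of HOXA2 and HOXA11, both tested, 0 were called. HOXA11 had 7.38, 8.77 and 7.85 CPM with MRT199665, against 7.37, 7.36 and 6.81 CPM with vehicle, groups that touch without overlapping, and its log2 fold change was 0.15 ± 0.16 (SE, adjusted p = 0.728). HOXA2, with 3 to 13 counts per library, stood at 0.66 ± 0.55 on the log2 scale (SE, adjusted p = 0.634). Of 6 noncoding RNAs of the cluster in the table, 5 were tested and 0 called. With 1.25% of all tested genes called, 0 among so few is near the background. HOXA-AS3, the antisense RNA over the 3′ end of HOXA7, had 4.97, 3.71 and 5.09 CPM with MRT199665, against 3.01, 3.17 and 3.66 CPM with vehicle. Its groups lay close without overlap, and the log2 fold change was 0.51 ± 0.22 (SE, adjusted p = 0.323). HOXA-AS4, the older symbol of HOXA10-AS, stood at 0.44 ± 0.20 (SE, adjusted p = 0.362) and HOXA-AS2 at 0.63 ± 0.51 (SE, adjusted p = 0.631). Reads of an antisense RNA and of the HOXA gene opposite could be confused, as the strand setting is unknown.

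**Figure D3:**
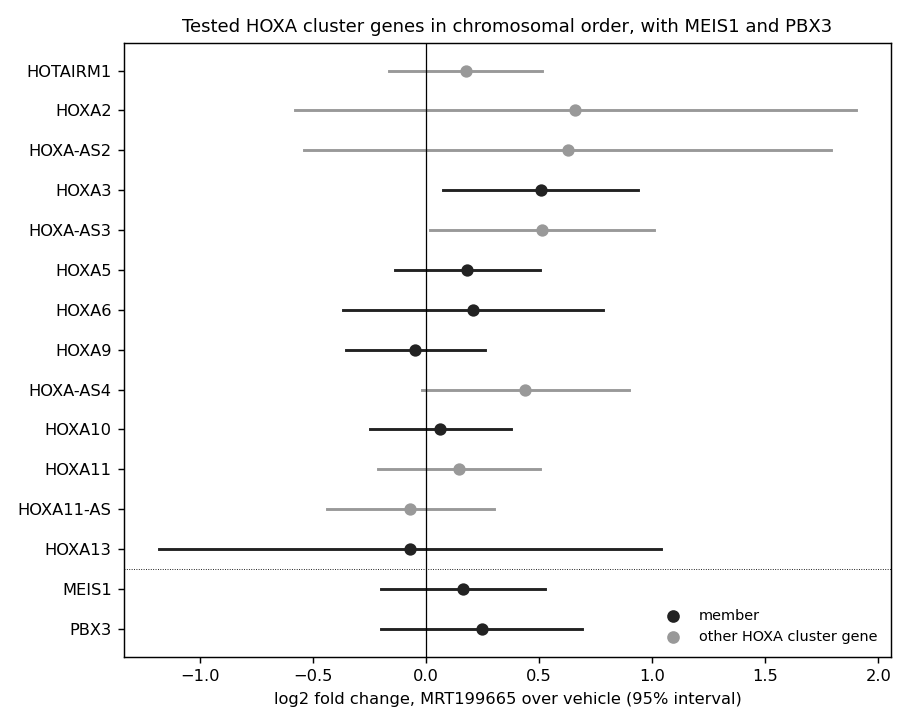
Log2 fold changes, MRT199665 over vehicle (x axis), with 95% intervals, of the tested HOXA cluster genes in chromosomal order and of MEIS1 and PBX3 below the dotted line, with members in black and other cluster genes in grey. The intervals of HOXA9 and HOXA10 are narrow around 0, that of HOXA3 lies above 0 before adjustment for 13053 tests, and that of HOXA13 spans more than 2-fold in both directions.

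The HOXB, HOXC and HOXD clusters gave few or no counts. Of their 28 listed genes, 18 had a count of 0 in all 6 libraries and 0 passed the filter. The most counts were those of HOXC6, with 11, 3 and 9 in MRT199665 libraries and 5, 12 and 9 in vehicle libraries. Their summed level was 1.03 ± 0.306 CPM (SD) in the 3 MRT199665 libraries, against 1.16 ± 0.661 CPM (SD) in the 3 vehicle libraries.

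Of 9 other TALE and PBX-binding genes, 6 were tested and 0 called, which is near the 1.25% called of all tested genes. The median log2 fold change was 0.05, against 0.01 over all tested genes. PBXIP1, which binds PBX proteins and keeps them from DNA, had 130, 109 and 113 CPM with MRT199665, against 78.6, 94.4 and 86.5 CPM with vehicle. The groups did not overlap, and the log2 fold change of 0.44 ± 0.12 (SE) missed the threshold (adjusted p = 0.140). TGIF1, a TALE repressor, stood at -0.43 ± 0.23 (SE, adjusted p = 0.431). TGIF2, at 0.58 ± 0.38 (SE, adjusted p = 0.535), was carried by MRT199665 replicate 2 (30.7 CPM, with 12.3 and 12.2 CPM in its fellow replicates) and turned sign in 1 of 15 alternatives. MEIS2 was measured at 0.13 ± 0.14 (SE, adjusted p = 0.741). MEIS3 was near the limit of detection and was not tested.

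Of 39 activators of HOXA transcription, among them the KMT2A-menin and DOT1L complexes, 35 were tested and 0 called, against 1.25% of all tested genes. At that share a list of this size holds few calls or none, so 0 singles out nothing about these genes. Their median log2 fold change was 0.05. At an unadjusted p under 0.05 there were 4 of the 35, against 14.7% of all tested genes. Non-overlapping groups were found for 7, against 22.2%. DOT1L, the histone H3 lysine 79 methyltransferase recruited by KMT2A fusions, had 27.6, 26.3 and 31.2 CPM with MRT199665, against 37.3, 39.6 and 38.2 CPM with vehicle. Its groups did not overlap, and the log2 fold change was -0.43 ± 0.12 (SE, adjusted p = 0.145). NUP98, a nucleoporin that forms leukaemic fusions, stood at 0.37 ± 0.13 (SE, adjusted p = 0.237) and SETD2, a histone H3 lysine 36 methyltransferase, at 0.32 ± 0.12 (SE, adjusted p = 0.272). The Polycomb list held 28 genes, most of which silence HOX clusters, while KDM6A, KDM6B and BAP1 remove Polycomb histone marks. Of the 28, 26 were tested and 0 called, again near the share of 1.25%, and the median was 0.01. Those with the lowest p were RING1 (0.37 ± 0.21, SE), PHC3 (-0.26 ± 0.15) and PHF1 (-0.39 ± 0.22), with adjusted p of 0.462, 0.464 and 0.466.

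Of 27 reported target genes of HOXA9 and MEIS1, 23 were tested and 0 called, against 1.25% of all tested genes. Their log2 fold changes ran from -0.20 to 1.33, with 15 above 0, against 6642 of all 13053 tested genes, and a median of 0.11, against 0.01 over all tested genes. The highest, that of PIM1, was carried by MRT199665 replicate 2 (9.61 CPM, with 1.13 and 1.56 CPM in replicates 1 and 3), and its groups overlapped. At an unadjusted p under 0.05 there were 6 of the 23, against 14.7% of all tested genes, and 8 had non-overlapping groups, against 22.2%. The list was chosen with earlier results of these data known, so these shares do not measure enrichment. FLT3, a receptor tyrosine kinase of progenitors, had 21.7, 27.1 and 18.8 CPM with MRT199665, against 14.8, 14.3 and 16.1 CPM with vehicle, and the log2 fold change was 0.57 ± 0.16 (SE, adjusted p = 0.149). CDK6, a G1 kinase, had 262, 215 and 244 CPM, against 151, 188 and 183 CPM with vehicle, and the log2 fold change was 0.47 ± 0.13 (SE, adjusted p = 0.149). LMO2, an adaptor of haematopoietic transcription complexes, stood at 0.43 ± 0.15 (SE, adjusted p = 0.218). All MRT199665 values of FLT3, CDK6 and LMO2 lay above all vehicle values. MYB, a transcription factor of progenitors, lay the other way, with 782, 811 and 768 CPM with MRT199665, against 940, 879 and 902 CPM with vehicle (log2 fold change -0.20 ± 0.11, SE, adjusted p = 0.439).

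Of 5 further genes linked to HOXA9 or HOXA10, all tested, 1 was called, against 1.25% of all tested genes. Log2 fold changes were positive for 2 and negative for 3, with a median of -0.29, so the called gene does not stand for the list. As this list was also chosen with earlier results of these data known, these shares do not measure enrichment. CYBB, which encodes the electron-carrying subunit of the phagocyte oxidase and is reported to be repressed by HOXA10, rose to 305, 309 and 298 CPM with MRT199665, against 142, 134 and 151 CPM with vehicle (log2 fold change 1.10 ± 0.11, SE, adjusted p = 0.00242). HOXA10 itself did not pass the test in the same libraries. The cell cycle inhibitors CDKN2A and CDKN1A stood at -0.32 ± 0.14 (SE, adjusted p = 0.348) and -0.29 ± 0.13 (SE, adjusted p = 0.354). The myeloid marker MPO averaged 89.5 ± 6.43 CPM (SD) over the 3 MRT199665 libraries, against 64.9 ± 5.05 CPM (SD) over the 3 vehicle libraries, and was not called (adjusted p = 0.105). The 13 myeloid blast markers summed to between 1911 and 2103 CPM with MRT199665, against between 1490 and 1957 CPM with vehicle, with 9 of 11 tested log2 fold changes positive and CD34 and CEBPA at 0, and their part in these values was not tested. With the replicate number as a block, which left 7 higher and 5 lower genes in all, the log2 fold change of CYBB was 1.10 ± 0.15 (SE) and the call was lost (adjusted p = 0.0897).

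**Figure D4:**
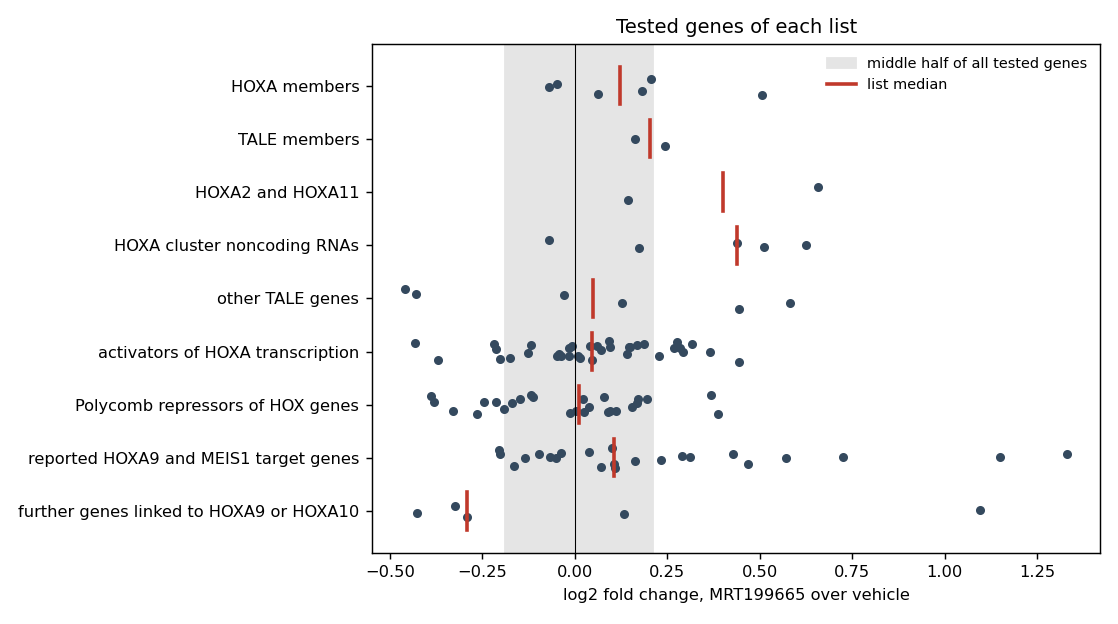
Log2 fold changes, MRT199665 over vehicle (x axis), of the tested genes in each list (rows, 1 point per gene), with list medians in red and the range between the quartiles of all 13053 tested genes, from -0.19 to 0.21, in grey. Most members and regulators lie within or close to the grey band, and CYBB, at 1.10, was the one gene called.

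The members did not follow one shared pattern over the libraries. By the root mean square difference of centred log2 CPM over the 6 libraries, HOXA10 and MEIS1 were the closest pair of tested members (0.126), and MEIS1 and PBX3 lay at 0.413. The genes nearest to HOXA10 were FLOT2 (0.016), SPI1 (0.022) and TXN2 (0.033), and those nearest to HOXA9 were PPP6C (0.037), MRPS2 (0.038) and ECHDC1 (0.040). RPS4X (0.039), ACSS1 (0.044) and NCOA3 (0.046) were nearest to MEIS1, and GLTSCR2 (0.049), SUPT16H (0.050) and PTPN12 (0.051) to PBX3. Against the 5120 genes compared, the median difference was 0.214 for HOXA10, 0.228 for HOXA9, 0.253 for MEIS1 and 0.333 for PBX3.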

How the data were processed

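Gene expression was measured in 6 OCI-AML2 libraries, 3 treated for 48 h with MRT199665 at 100 nM and 3 with vehicle, made with a Lexogen 3′ kit, per the labels. The deposited table holds raw counts per gene symbol. The submitters' processing notes name hg19, DESeq2, STAR 2.4 and HTSeq 0.6.1, while annotation and strand setting are not given in the sources used here. Genes were tested with edgeR 4.0.16 (quasi-likelihood, TMM, group only, filterByExpr with minimum count 10 and minimum total 15), with Benjamini-Hochberg adjustment over 13053 genes. Limma 3.58.1 (voom), DESeq2 1.42.0, other scalings and filters, the replicate number as a block and leaving out each library were alternatives. The test was checked on simulated counts. Intervals used the moderated degrees of freedom. The members and lists were chosen with earlier results of these data known, and a few listed genes are not reported here. Named were all members, each list's called genes and 3 of lowest p, and the 3 genes of at least 20 CPM nearest to each of HOXA9, HOXA10, MEIS1 and PBX3; other names serve as examples chosen after values were seen. Libraries of a group differed by more than sampling noise (chi-square per degree of freedom 9.70 or more). Promoter windows came from RefSeq (GRCh38.p14) and exon overlap from GENCODE 29, so no hg19 coordinates are given.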

Additional observations from a re-analysis of the deposited data

How the results depend on the processing

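No member was called under any of the 15 alternatives in which it could be tested. HOXA3, HOXA5, HOXA6 and MEIS1 kept a positive log2 fold change in all 15. Leaving out 1 library gave values from -0.14 to 0.056 for HOXA9, -0.034 to 0.15 for HOXA10 and, over the 4 omissions in which it passed the filter, -0.37 to 0.16 for HOXA13, each range crossing 0. Without replicate 2 of both groups, an alternative chosen after seeing the data, PBX3 stood at -0.053, HOXA13 at 0.35 and TGIF2 at -0.19. The cause of these changes of sign was not tested. The main test called 111 higher and 52 lower genes. No low-count filter gave 373 and 271, DESeq2 217 and 146, and leaving out 1 library between 29 and 78 higher and between 20 and 55 lower. With the replicate block 7 were higher and 5 lower. Deviations from the group means correlated at -0.55, -0.47 and 0.02 for replicates 1, 2 and 3, so libraries of the same number did not deviate alike. With 3 libraries per group these correlations depend on each other, and they cannot show whether the libraries were paired. Of the pathway lists, 1 gene was called higher in the main test, 2 without a low-count filter (CYBB and PIM1) and 0 with the replicate block. PIM1 had 15, 57 and 22 counts in MRT199665 replicates 1, 2 and 3, against 28, 11 and 9 with vehicle. Its call thus leaned on MRT199665 replicate 2, the library of lowest depth. HOXA13 did not pass the stricter filter, with a minimum count of 30, nor the filter without MRT199665 replicate 1 or without vehicle replicate 2, and HOXA4 and HOXA7 could be tested only without a filter. The few counts of HOXA13 left a 2-fold change in either direction within its interval.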
